A study of Mus musculus with 6 samples.

Results

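The genes described here make up the MHC class II antigen presentation pathway: the classical chains H2-Aa, H2-Ab1 and H2-Eb1, the invariant chain Cd74, the transactivator Ciita, the peptide editor genes H2-DMa, H2-DMb1 and H2-DMb2, and the editor's inhibitor genes H2-Oa and H2-Ob. They were chosen by name, and all 10 were found among the 16440 genes of the deposited table. RNA-seq had been performed on 6 libraries from mice of the FVB N/J strain. Normal myeloid progenitors (MPs, 3 libraries) were Lin-Sca-1-c-Kit+ bone marrow (BM) cells, a gate that keeps several kinds of progenitors (common myeloid, granulocytic and monocytic, megakaryocytic and erythroid) in one mixture. The c-Kit+ APL progenitors (3 libraries) came from acute promyelocytic leukemia of hMRP8-PML/RARα transgenic mice, in which a human promoter active in myeloid cells drives the fusion gene. The paper describes APL cells marked with GFP by a retroviral vector and expanded by transplantation into syngeneic mice. The groups thus differ in the transgene and the gate together, and also in the vector and the transplantation where such cells were used. The labels call the libraries of a group biological replicates without naming the mice, and p-values then measure the spread between these libraries.

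MHC class II molecules show peptides from the endosome to CD4+ T cells, and are characteristic of dendritic cells, B cells and activated macrophages. An α and a β chain assemble on the invariant chain, which fills the groove and guides the complex to the endosome. There the chain is cut down to a small fragment called CLIP, DM exchanges CLIP for other peptides, and DO holds DM back. Transcription of class II genes depends in large part on CIITA, a coactivator without DNA binding of its own. It is recruited by RFX, CREB and NF-Y, which sit on the X and Y boxes shortly before the start site.

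Stretches of promoters are given to show where letters of these boxes lie in members with different changes: H2-Ob, which fell 18.5-fold, H2-DMb1 and H2-DMb2, which fell least, and H2-Eb1, which was not called, all carry letters of both boxes. RefSeq promoters of GRCm38.p6, from 250 bases before to 50 bases after each start site, were at hand for 7 of the 10 members, with 8 promoters in all since H2-DMa has more than 1. The 6 stretches below run 5′ to 3′ on the strand of the gene, from base -150 to base -31 relative to the start site. Capitals mark matches on the strand shown to ATTGG, the core of the Y box bound by NF-Y, and ACNNATGA, letters of the X box. In H2-Aa they mark ATTGG and, in place of ACNNATGA, TGACGTCA, the palindromic element that CREB proteins bind.
H2-Ob: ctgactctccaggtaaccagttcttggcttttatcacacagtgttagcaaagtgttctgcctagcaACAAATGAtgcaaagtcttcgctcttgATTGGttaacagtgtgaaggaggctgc
H2-DMb1: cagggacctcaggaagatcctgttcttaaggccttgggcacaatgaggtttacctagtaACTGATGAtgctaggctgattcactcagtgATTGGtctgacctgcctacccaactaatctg
H2-DMb2: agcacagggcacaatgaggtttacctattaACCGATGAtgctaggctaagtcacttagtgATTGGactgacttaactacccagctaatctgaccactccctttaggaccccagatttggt
H2-Eb1: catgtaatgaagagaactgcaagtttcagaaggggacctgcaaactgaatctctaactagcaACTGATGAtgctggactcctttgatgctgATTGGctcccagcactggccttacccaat
H2-Oa: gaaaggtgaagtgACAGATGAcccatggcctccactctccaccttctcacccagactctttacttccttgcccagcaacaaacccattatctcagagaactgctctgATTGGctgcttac
H2-Aa: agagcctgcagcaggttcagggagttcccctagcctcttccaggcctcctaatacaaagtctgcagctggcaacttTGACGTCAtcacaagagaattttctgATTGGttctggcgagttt
The windows lie on chr17, at chr17:34238755-34238874 for H2-Ob, chr17:34153041-34153160 for H2-DMb1, chr17:34145099-34145218 for H2-DMb2, chr17:34305717-34305836 for H2-Eb1, chr17:34092229-34092348 for H2-Oa and chr17:34287854-34287973 for H2-Aa, which is read on the minus strand and the others on the plus strand. The letters were chosen after the members' promoters had been viewed, and both strands were searched. H2-Eb1 also has ATTGG on the opposite strand at base -35, within its window and left in small letters.

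ATTGG was present in 7 of the 8 member promoters and in 37.4% of all 32851 promoters of the table. ACNNATGA was present in 5 of 8 and in 9.38% of all promoters. ACNNATGA followed by ATTGG within 60 bases on 1 strand was present in 4 of 8 and in 0.502% of all. These 4 promoters were those of H2-Ob, H2-DMb1, H2-DMb2 and H2-Eb1. TGACGTCA was found in 1 of 8 member promoters, that of H2-Aa, and in 1.79% of all promoters. Neither promoter of H2-DMa had ACNNATGA, and 1 of them had ATTGG, at base -198, outside the stretch shown for the others. In H2-Oa the X box letters began at base -137 and the Y box core at base -43, too far apart for the paired search. A match describes letters only, and a promoter without one is not thereby shown to lack the factor. Since the letters were chosen from these same promoters, their higher share in members is not a test of enrichment.

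Of the 10 class II genes, 9 were downregulated in the c-Kit+ APL progenitors, 0 were upregulated (0 also at an unadjusted p under 0.05), and H2-Eb1 did not pass the test in either direction. In the same fit 24.4% of the 14595 genes tested were lower and 21.7% were higher in APL, and all 3 APL libraries lay below all 3 MP libraries for 39.8% of them, against 9 of the 10 class II genes. A gene was called when the Benjamini-Hochberg adjusted p of limma was under 0.05 and the fold change over 1.5. The median log2 fold change, APL minus MP, was -2.36 over the class II genes and -0.10 over all genes tested. With 3 libraries against 3, the two-sided exact permutation test of a single gene cannot go below p = 0.1, the value reached by each of the 9. In bulk libraries such as these, fewer cells of a type and less RNA per cell cannot be told apart. Values are scaled fragments, that is, fragments of a gene after a scaling by library that left totals between 21876288 and 25810097.

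**Figure D1:**
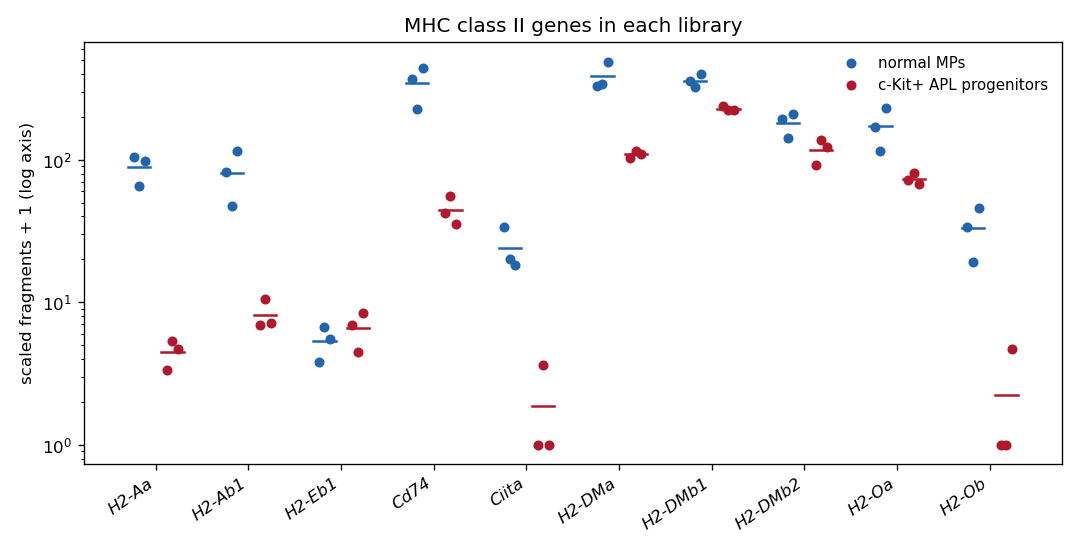
Scaled fragments plus 1 (log axis) of the 10 MHC class II genes in the 3 normal MP libraries (blue) and the 3 c-Kit+ APL libraries (red). Points are libraries and bars are arithmetic means, and the colours overlap for H2-Eb1 alone.

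Among the classical chains, H2-Aa, the α chain of I-A (chr17:34282751-34287771), was measured at 103 (MP 1), 64.7 (MP 2) and 96.5 (MP 3) scaled fragments against 2.36 (APL 1), 4.33 (APL 2) and 3.70 (APL 3), an order of libraries kept for all genes that follow. The groups were far apart, with every APL library near the limit of detection. Means were 88.1 ± 20.5 in MPs and 3.46 ± 1.01 in APL (SD, n = 3 each), and the log2 fold change was -4.32 ± 0.30 (SE, adjusted p = 2.57e-06). Before scaling these values were 285 fragments over the MP group and 10 over the APL group. After the deposited scaling by library their ratio was 24.8, with a 95% exact interval of 13.3 to 52.4 that covers counting error only. Later ratios from fragment counts are on the same scale.

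H2-Ab1, its partner β chain (chr17:34263227-34269418), had 80.5, 46.7 and 114 scaled fragments in the MP libraries and 5.89, 9.54 and 6.17 in the APL libraries. The groups did not overlap, although the MP libraries varied by a factor of 2.44 among themselves. The log2 fold change was -3.25 ± 0.36 (SE, adjusted p = 4.83e-05). H2-Eb1, the β chain of the other class II molecule, I-E (chr17:34305867-34316674), had 2.81, 5.71 and 4.51 scaled fragments in the MP libraries and 5.89, 3.47 and 7.41 in the APL libraries, so that the groups overlapped. Its log2 fold change was 0.29 with a 95% interval of -0.58 to 1.17 (adjusted p = 0.522), which leaves changes in either direction possible. These values came from 14 fragments over the MP group and 15 over the APL group, at the edge of what this depth can resolve. As background, mice of the FVB strain carry the q haplotype of the MHC, which does not make I-E at the cell surface, whereas the reference genome is that of C57BL/6. Class II chains differ between strains, and fragments of FVB alleles that failed to align would be missing from both groups. How many were missed was not tested.

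Cd74, the invariant chain (chr18:60803849-60812652), had 369, 228 and 440 scaled fragments in the MP libraries and 41.2, 54.6 and 34.6 in the APL libraries. It was lower in every APL library than in any MP library, but remained well above 0. Means were 346 ± 108 and 43.5 ± 10.2 (SD, n = 3 each), and the log2 fold change was -2.93 ± 0.27 (SE, adjusted p = 1.46e-05).

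Ciita, the class II transactivator (chr16:10480072-10527564), had 32.8, 19.0 and 17.1 scaled fragments in the MP libraries and 0, 2.60 and 0 in the APL libraries. It was thus a gene of low level in normal MPs and seen in 1 of the 3 APL libraries. The log2 fold change was -3.91 ± 0.55 (SE, adjusted p = 0.000222), and 74 fragments in MPs against 3 in APL gave a ratio of 21.5 with a 95% exact interval of 7.08 to 107. The gene has several promoters used by different cell types, which values per gene do not separate. In APL 1 and APL 3, where no Ciita fragment was seen, Cd74 was at 41.2 and 34.6 and H2-DMb1 at 237 and 222 scaled fragments. How far the members depended on Ciita in these cells was not tested.

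The DM genes fell by smaller amounts. H2-DMa, the α chain of DM (chr17:34122832-34139101), had 327, 337 and 488 scaled fragments in the MP libraries and 103, 114 and 109 in the APL libraries. The APL libraries were close to each other and all below the lowest MP library. The log2 fold change was -1.79 ± 0.17 (SE, adjusted p = 1.94e-05).

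H2-DMb1, a β chain of DM (chr17:34153191-34160229), had 356, 323 and 397 scaled fragments in the MP libraries and 237, 223 and 222 in the APL libraries, a log2 fold change of -0.65 ± 0.12 (SE, adjusted p = 0.000981). H2-DMb2, the neighbouring gene for a similar β chain (chr17:34145416-34151095), had 192, 141 and 210 in the MP libraries and 90.3, 136 and 123 in the APL libraries, a log2 fold change of -0.63 ± 0.21 (SE, adjusted p = 0.0257). MP 2 and APL 2 were nearly level for H2-DMb2. These falls are close to the required fold of 1.5: without MP 3 neither gene was called (-0.58 for H2-DMb1 and -0.52 for H2-DMb2), and H2-DMb2 also lost its call without MP 1 (-0.58) and without APL 1 (-0.46). The pair are close copies, and their fragments were not whole numbers before scaling, so that fragments could be divided between them. Their sum was 548, 464 and 607 in the MP libraries and 328, 359 and 344 in the APL libraries, with means of 539.5 ± 72.0 and 344 ± 15.7 (SD, n = 3 each) and a ratio of means of 1.57. H2-DMb1 took between 62.0% (APL 2) and 72.4% (APL 1) of this sum.

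The DO genes differed from each other. H2-Ob, the β chain of DO (chr17:34238905-34245908), had 32.8, 18.1 and 45.1 scaled fragments in the MP libraries and 0, 0 and 3.70 in the APL libraries. The gene was seen in 1 of the 3 APL libraries, with a log2 fold change of -4.21 ± 0.63 (SE, adjusted p = 0.000353). The 104 fragments of the MP group against 3 of the APL group gave a ratio of 30.2, with a 95% exact interval of 10.1 to 149. H2-Oa, the α chain of DO (chr17:34083843-34095309), had 170, 114 and 230 scaled fragments in the MP libraries and 70.7, 79.8 and 66.6 in the APL libraries. It fell by 1.18 on the log2 scale (SE 0.25, adjusted p = 0.00253), with groups that did not overlap. In the table H2-Oa shares its locus with BC051537, which had 554, 558 and 934 in MPs and 3.53, 7.80 and 9.87 in APL. Fragments could be divided between these genes, and the H2-Oa value is uncertain to that extent.

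Across the members, the 95% intervals of the log2 fold change of H2-Aa (-5.00 to -3.63), H2-Ob (-5.65 to -2.77), Ciita (-5.16 to -2.67), H2-Ab1 (-4.06 to -2.43) and Cd74 (-3.54 to -2.32) lay wholly below those of H2-DMa (-2.18 to -1.40), H2-Oa (-1.74 to -0.61), H2-DMb2 (-1.11 to -0.15) and H2-DMb1 (-0.92 to -0.39). The former 5 were thus reduced 7.64-fold (Cd74) to 19.9-fold (H2-Aa) on the log2(scaled fragments + 1) scale, and the latter 4 between 1.55-fold (H2-DMb2) and 3.46-fold (H2-DMa). The order at the top rests on few fragments: H2-Ob was at -4.95 without APL 3 and Ciita at -4.53 without APL 2, the only APL library in which each was seen. The difference between the members' falls was not itself tested. For H2-DMb1 and H2-DMb2, 24.4% and 25.0% of all genes tested had a larger fall, which places them at the weak edge of the downregulated genes, against 4.20% for H2-Aa.

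Levels per transcript length, in FPKM, give the order of the genes within a group. In normal MPs H2-DMb1 (11.2 ± 0.71 FPKM, SD, n = 3), Cd74 (11.1 ± 3.19), H2-DMb2 (10.8 ± 1.69), H2-DMa (9.46 ± 1.95) and H2-Oa (7.76 ± 2.44) were highest, and each of these overlapped the next in its range over libraries. H2-Aa (3.66 ± 0.80 FPKM) and H2-Ab1 (2.96 ± 1.12) followed below them and overlapped each other. H2-Ob was at 0.467 ± 0.197 FPKM, and Ciita (0.143 ± 0.0509) and H2-Eb1 (0.0953 ± 0.0325) were lowest. By these values the classical chains were below DM and the invariant chain in normal MPs already. Fragments of FVB alleles that failed to align could lower some genes more than others. Fragments divided between H2-DMb1 and H2-DMb2, or between H2-Oa and BC051537, could also alter the order in either group. Neither was tested.

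In APL the order changed. H2-DMb1 (7.24 ± 0.41 FPKM, SD, n = 3) and H2-DMb2 (7.20 ± 1.54) stayed highest and overlapped, followed by H2-Oa (3.31 ± 0.32), H2-DMa (2.67 ± 0.14), Cd74 (1.40 ± 0.32) and H2-Ab1 (0.272 ± 0.0760), with no overlap between neighbours from H2-DMb2 to H2-Aa. H2-Aa (0.145 ± 0.0418 FPKM) and H2-Eb1 (0.124 ± 0.0437) overlapped, as did H2-Ob (0.0174 ± 0.0302) and Ciita (0.00552 ± 0.00956). Cd74 moved from among the highest 5 genes, in which its range overlapped its neighbours, to a place of its own below H2-DMa.

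**Figure D2:**
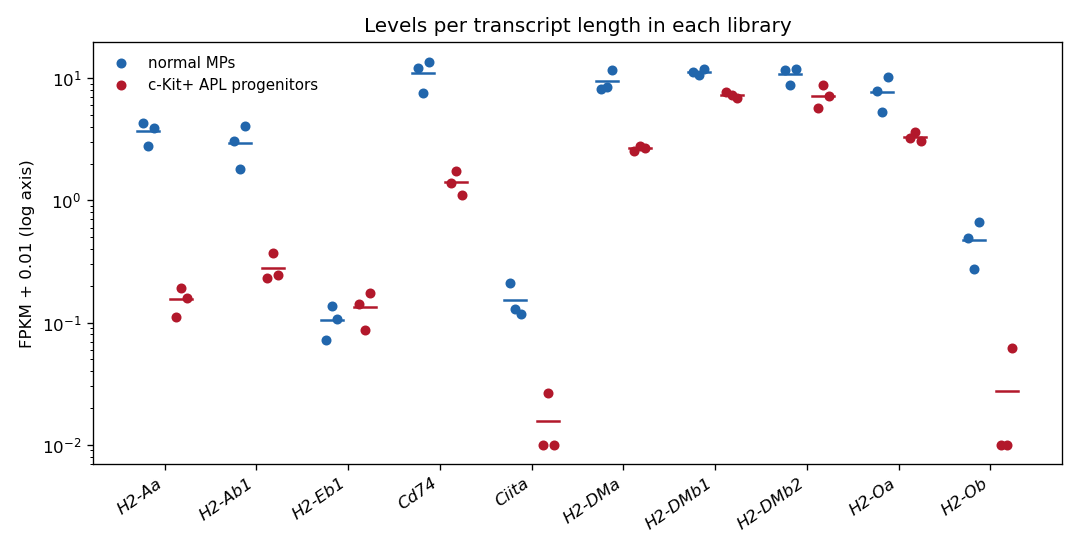
FPKM plus 0.01 (log axis) of the 10 MHC class II genes in the normal MP (blue) and c-Kit+ APL (red) libraries. Points are libraries and bars are arithmetic means, and H2-DMb1 and H2-DMb2 are the highest genes in APL at 7.24 and 7.20 FPKM.

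The MP libraries also differed among themselves, with a highest value between 1.23 times (H2-DMb1) and 2.49 times (H2-Ob) the lowest. MP 2 was the lowest MP library for 7 of the 10 members, against 36.4% of all genes tested. MP 3 was the highest for 7 of the 10, against 56.3% of all genes tested. The members that varied most in MPs were H2-Ob, H2-Ab1 (2.44 times) and H2-Eb1 (2.03 times).

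Along chr17, 8 members lie within a stretch of 261 kb that holds 16 genes of the table (chr17:34083843-34344645). The stretch did not fall as a block. Between H2-DMb1 and H2-Ob lie the class I peptide supply genes: the proteasome subunits Psmb9 and Psmb8 and the peptide transporter chains Tap1 and Tap2. Psmb9 had a log2 fold change of 0.06 (95% interval -0.24 to 0.36), Tap1 of 0.13 (-0.14 to 0.41), Psmb8 of -0.06 (-0.37 to 0.24) and Tap2 of 0.10 (-0.17 to 0.38). None of these 4 was called, and the lower ends of these intervals stay above the estimate of -0.65 for H2-DMb1. Of the 8 genes of the stretch that are no members, 3 were lower and 0 higher in APL, against 24.4% and 21.7% of all genes tested. The 3 were BC051537, described above (-6.45), and H2-Eb2 and H2-Ea-ps, described below. Among 6 neighbours listed by name, 0 were lower and 1 was higher. This was Btnl2, a butyrophilin-like gene just beyond the stretch (chr17:34354822-34369492), which rose from 71.2, 34.3 and 35.2 to 194, 231 and 209 scaled fragments (log2 fold change 2.23 ± 0.28, SE, adjusted p = 0.000105).

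The remaining class II loci, H2-Eb2 and H2-Ea-ps, both fell. H2-Eb2, a class II β chain gene, had 10.3, 12.4 and 10.8 scaled fragments in the MP libraries and 0 in all 3 APL libraries. Against a floor of 3 fragments over the APL group it was at least 10.5-fold lower. H2-Ea-ps, the I-E α chain locus that is a pseudogene in the reference strain, had 5.62, 3.81 and 9.02 in MPs and 0, 0 and 1.23 in APL, or 20 fragments against 1, a ratio of 17.4 with a 95% exact interval of 2.79 to 723. Without any 1 MP library, 1 of these 2 loci was called, since H2-Eb2 then no longer reached a value of 1 in 3 libraries.

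**Figure D3:**
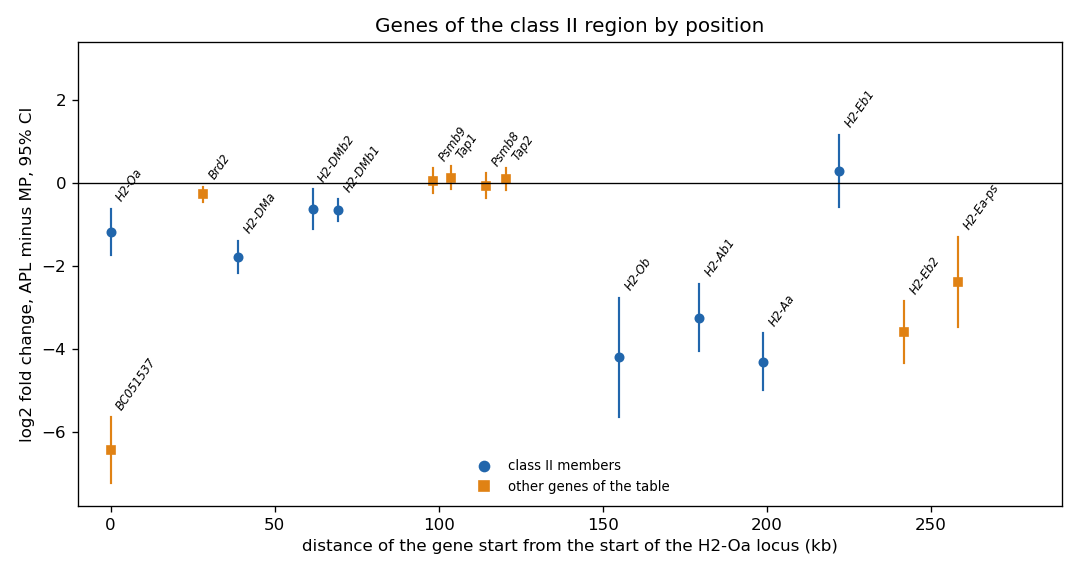
Log2 fold change, APL minus MP, with its 95% interval, of 16 genes of the class II region against the distance of their start from the start of the H2-Oa locus in kb. Members (blue circles) on both sides fell, except H2-Eb1 (0.29), while Psmb9, Tap1, Psmb8 and Tap2 between them lay from -0.06 to 0.13.

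Genes of the complex that recruits Ciita moved in both directions. Of 7 promoter complex genes tested, 2 were lower and 1 was higher in APL. Over all genes tested 24.4% were lower and 21.7% higher, and counts near these shares do not set a list apart. The same shares apply to the lists that follow. Nfya and Nfyb, subunits of NF-Y, fell by 0.67 and 0.65 on the log2 scale, from 4685 ± 64.1 to 2934 ± 36.1 and from 1338 ± 53.3 to 854 ± 4.66 scaled fragments (SD, n = 3 each). Among the RFX subunits, Rfxank rose from 217, 225 and 276 to 366, 421 and 475 scaled fragments (log2 fold change 0.81 ± 0.14, SE, adjusted p = 0.000816). Rfx5 had a log2 fold change of -0.43 (95% interval -0.59 to -0.27) and Rfxap of 0.24 (-0.03 to 0.50), and neither was called.

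Among regulators of Ciita, Irf8, an interferon regulatory factor of monocytes, dendritic cells and B cells, changed most. It had 3093, 2519 and 3285 scaled fragments in the MP libraries and 87.2, 114 and 91.3 in the APL libraries. The groups were far apart and the log2 fold change was -4.91 ± 0.14 (SE, adjusted p = 1.83e-08). Spi1, the gene of PU.1, listed in the table as Sfpi1, moved the other way: 2275, 1925 and 2641 in MPs against 5634, 6998 and 6250 in APL (log2 fold change 1.47 ± 0.12, SE, adjusted p = 8.67e-06). Of 11 regulators tested 3 were lower and 1 was higher, or 2 higher without MP 3, against 24.4% and 21.7% of all genes tested. Irf1, which acts downstream of interferon, fell by 0.83 on the log2 scale, and Jak2, a kinase of the interferon γ receptor, fell by 0.66.

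Endosomal processing genes moved in both directions, with 3 of 9 lower and 2 higher, against 24.4% and 21.7% of all genes tested. Ctss, the protease that makes the last cut of the invariant chain in antigen presenting cells, had 244, 113 and 251 scaled fragments in MPs and 58.9, 60.7 and 65.4 in APL, with no overlap (log2 fold change -1.61 ± 0.29, SE, adjusted p = 0.00107). Lgmn, an asparagine endopeptidase, fell by 2.12 on the log2 scale from 44.0 ± 18.3 scaled fragments (SD, n = 3), and Ctsl, another cysteine protease, fell by 0.82. Ifi30, a thiol reductase that opens the disulfide bonds of antigens, rose from 303, 285 and 383 to 1714, 2142 and 2128 scaled fragments (log2 fold change 2.62 ± 0.13, SE, adjusted p = 3.79e-07). Ctsz, a carboxypeptidase, rose by 1.16 on the log2 scale. None of the 3 genes of surface turnover was called: Marchf8, a ubiquitin ligase that acts on class II at the cell surface in many cells, had a log2 fold change of -0.29 (95% interval -0.46 to -0.11).

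Costimulatory genes were split as well, with 4 of the 7 tested lower and 2 higher, against 24.4% and 21.7% of all genes tested. Tnfsf4 (OX40 ligand) had 15.9, 17.1 and 29.8 scaled fragments in MPs and 0 in all 3 APL libraries, at least 19.8-fold lower against a floor of 3 fragments over the group. Tnfsf9 (4-1BB ligand) had 12.2, 20.9 and 32.5 in MPs and 0, 0 and 1.23 in APL. Without any 1 MP library Tnfsf4 was not tested, and 3 costimulatory genes were lower. Icosl (ICOS ligand) rose from 106 in each MP library to 517, 530 and 509 in the APL libraries (log2 fold change 2.28 ± 0.11, SE, adjusted p = 2.3e-07).

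**Figure D4:**
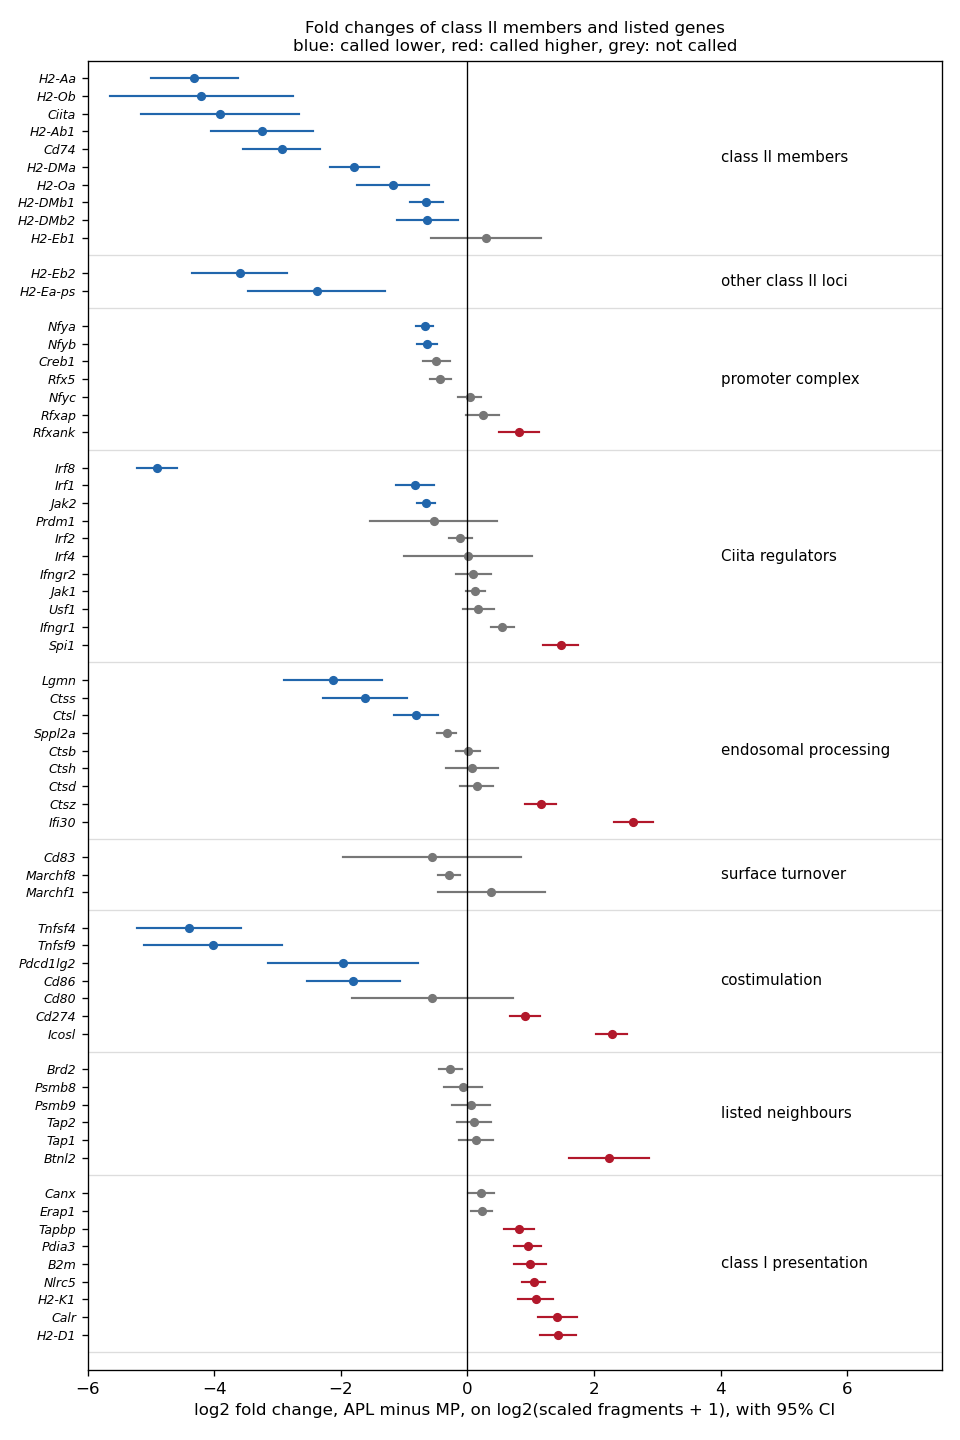
Log2 fold change, APL minus MP, with its 95% interval, of the 10 MHC class II genes and of the genes of 8 listed groups that were tested. Blue marks genes called lower, red genes called higher and grey genes not called, and 9 of 10 class II genes are blue while 7 of 9 class I presentation genes are red.

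Class I presentation genes went the other way: none of 9 was lower and 7 were higher in APL, with a median log2 fold change of 0.99. H2-D1 rose by 1.43, the chaperone Calr by 1.42 and H2-K1 by 1.08 on the log2 scale, and Nlrc5, which serves class I genes as Ciita serves class II, rose from 708 ± 30.0 to 1468 ± 97.1 scaled fragments (SD, n = 3 each).

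Markers of the cell types that carry class II moved in both directions, as did all genes tested (24.4% lower and 21.7% higher). Of 11 dendritic cell markers tested, 5 were lower and 1 was higher in APL, and their summed level lay between 3963 and 5115 scaled fragments in MPs and between 2432 and 2742 in APL. Without Flt3, a cytokine receptor of early progenitors and dendritic cells, these sums overlapped (2368 to 2668 in MPs and 2403 to 2711 in APL). Most of this remainder was Tcf4 (mean 1214 in MPs and 873 in APL) and Bst2 (849 and 1612). It thus says little of the other markers. Zbtb46, a factor of conventional dendritic cells, had 286, 321 and 349 in MPs and 1.18, 0.867 and 1.23 in APL, Flt3 1564, 1670 and 2448 against 29.5, 30.3 and 35.8, and Ccr9, a chemokine receptor of plasmacytoid dendritic cells, 11.2, 20.9 and 20.7 against 1.18, 0.867 and 0. Bst2, carried by plasmacytoid dendritic cells among others, was the marker called higher, at 773, 740 and 1034 in MPs and 1395, 1754 and 1688 in APL. Itgax, the gene of CD11c, was at 55.2, 33.3 and 48.8 against 66.6, 82.1 and 59.3 and was not called. Other markers of differentiated dendritic cells were low in MPs, with Siglech between 5.71 and 16.9, Xcr1 between 2.86 and 5.41, Clec9a between 2.86 and 7.21 and Cd209a between 0.952 and 1.87.

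Of 9 B lineage markers tested, 3 were lower and 3 higher, against 24.4% and 21.7% of all genes tested. Their summed level lay between 409 and 516 in MPs and between 4696 and 5429 in APL, almost all of it Igll1, a surrogate light chain gene (log2 fold change 8.13). Without Igll1 the sums were 382 to 506 in MPs and 130 to 165 in APL. Cd79b, of the B cell receptor, fell by 5.62 on the log2 scale. Blnk, an adaptor of its signalling, was at 0 in all 3 APL libraries and at least 39.5-fold lower against a floor of 3 fragments over the group. Ms4a1, which defines mature B cells, was at most 1.804 in any library. Of 11 monocyte and macrophage markers 5 were lower, led by Ly86 (-4.74) and Cx3cr1 (-2.82), and 5 were higher, led by Emr1 (2.79), with sums of 2773 to 3337 in MPs and 3705 to 3802 in APL. Leaving out 1 library lowered some of these counts. Without MP 1, MP 2 or MP 3, 1 B lineage marker was called lower. Blnk and Ebf1 were then not tested, since they no longer reached a value of 1 in 3 libraries. Without MP 2, MP 3 or APL 2, 3 monocyte and macrophage markers were called lower. Without MP 1 or MP 3, 2 dendritic markers were called higher.

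Of 6 T and NK cell markers tested 3 were lower and none higher. Their summed level was 3582 to 3846 in MPs and 3370 to 3850 in APL. Almost all of it was Nkg7, which was not called, at 3594, 3347 and 3342 in MPs and 3338, 3663 and 3814 in APL. The sums thus say little of the other markers. Cd4, which progenitors and dendritic cells can also carry, had 190, 185 and 229 in MPs and 0, 5.20 and 2.47 in APL, Cd3d 32.8, 18.1 and 43.3 against 23.6, 33.8 and 25.9, and Cd3e 0 in all MP libraries. Erythroid markers differed most: 7 of 8 were lower and none higher, with sums of 42177 to 56379 in MPs and 209 to 356 in APL. Granulocyte progenitor markers were higher in 5 of 7 and lower in none, with sums of 317204 to 354886 and 802806 to 955626. Kit, used for both sorts, was present in all libraries, at 10442 to 10970 scaled fragments in MPs and 5780 to 6033 in APL. The part of these differences in makeup in the fall of the class II genes was not tested.

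The genes whose profile over the 6 libraries was most like the mean centred log2 profile of the 10 members, by Euclidean distance among all genes tested, were Trim14 (0.281), Syt2 (0.298), Thbs2 (0.298), Scrn1 (0.342) and Il27ra (0.345). Trim14, of the tripartite motif family, had 348, 268 and 343 scaled fragments in MPs and 58.9, 78.9 and 62.9 in APL. Il27ra, the receptor chain for interleukin 27, had 328, 311 and 366 against 67.2, 75.4 and 70.4. Syt2, Thbs2 and Scrn1 were each between 2.86 and 5.41 in MPs and at 0 in APL, so that their likeness rests on few fragments.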

How the data were processed

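RNA-seq was analysed in 3 normal MP and 3 c-Kit+ APL libraries, grouped by their labels. The authors deposited, for each gene and library, an FPKM value and estimated fragments scaled by a factor of the library, a signal rather than whole counts. Dividing by the value of 1 fragment gave whole numbers (within 0.02) for 88.2% to 89.7% of values up to 100 fragments, and totals of 20608715 to 28382457 fragments per library. The submitters' processing notes list CASAVA 1.8, TopHat2 2.0.6 and mm10, whereas the methods name STAR with mm9, and the tool behind the table is not given in the sources used here. Loci in it fit GRCm38 (mm10) and are printed counted from 1.

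Genes with at least 1 scaled fragment in at least 3 of 6 libraries were fitted with limma 3.58.1 in R 4.3.3 (lmFit, then eBayes with its trend option) after a log2 transform of scaled fragments plus 1, with Benjamini-Hochberg adjustment over all 14595. Fold changes on this scale understate those of low genes. All 10 members passed, Ciita and H2-Ob with a value of at least 1 in a single APL library. On simulated data (14533 genes, 89 changed 2-fold and 111 changed 4-fold) the test recovered 95.5% and 99.1% of these, with 12 false calls. Changed genes were drawn above a level that H2-Eb1, Ciita and H2-Ob do not reach, and all genes had the same dispersion. The recovery does not apply to these members, nor do the false calls apply where as many genes change as here. The members and lists were chosen with earlier results of these data known. All members were to be named, and from each list the called genes with the largest changes plus fixed regulators, and the 5 genes nearest to the members' profile. Psmb8, Psmb9, Tap1, Tap2, Jak2, Marchf8, Nlrc5, BC051537 and Bst2, Itgax, Cd3d, Nkg7, Ebf1 and the markers given for being low were added after their values were seen. Some listed genes are not reported here. March1 and March8 appear in the table as dates, and were matched by gene ID. Alternatives covered filter, pseudocount, scaling, FPKM, voom, the replicate block, the fold and each library left out.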

Additional observations from a re-analysis of the deposited data

How the results depend on the processing

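The count of class II genes lower in APL was 9, and lay between 7 and 9 with each library left out (7 without MP 3). It was 5 on FPKM with a pseudocount of 1, where all genes lower in APL were 2205 in place of 3558: Ciita (-0.18) and H2-Ob (-0.52), whose FPKM lie below that pseudocount, and H2-DMb1 (-0.57) and H2-DMb2 (-0.53) then missed the 1.5-fold limit. With a pseudocount of 0.01 on FPKM, chosen after seeing the data, it was 9 again. Quantile normalization called 1 class II gene higher, H2-Eb1 (0.99), and took H2-DMb2 below the limit (-0.45), as did median-ratio scaling (-0.57), which did the same to Nfyb (-0.58). With a value of at least 1 required in all 6 libraries, 7 of the 8 members still tested were lower, and 7 of 10 were lower at a fold over 2. Leaving out libraries gave 2913 to 3507 genes lower and 2734 to 3256 higher over all genes. Scaling to the same total and voom weights moved the median of all genes by -0.13, with 4376 genes lower and 2754 higher and with 4264 and 2735, and 9 class II genes were lower with either. Quantile normalization gave 3277 lower and 3567 higher.

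Library numbers are shared by the groups, but same-numbered libraries did not deviate together (correlations of 0.135, -0.0016 and 0.127 over 11061 genes, and MP 2 correlated best with APL 1). With the replicate block 9 class II genes were lower and none higher, and 3589 and 3164 genes over all. Of 891 values for 51 named genes under these alternatives, 863 kept their direction and side of the threshold, 27 lost their call, 1 gained one and 0 changed sign. Left out are the fold over 2 and genes no longer tested in a setting, such as Ciita and H2-Ob with a value required in all 6 libraries. Apart from the members and fixed regulators, the 51 genes were named for the largest changes of their lists in these data. That their calls were kept was thus in part fixed by this choice.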
